A study of Mus musculus with 24 samples.

Results

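The renin-angiotensin system was followed through 9 mouse genes in kidney, liver, lung and white adipose tissue (WAT) from young and old mice. The genes were Agt, Ren1, Ace, Enpep, Mme, Agtr1a, Agtr1b, Agtr2 and Mas1, chosen by name from the RefSeq symbol to which the accession of each array probe was matched. They are 9 of 45616 genes and unmatched targets on the array and have 13 probes. Each gene was read from the probe with the highest mean over the 24 arrays.

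The system forms the peptide hormone angiotensin II, which constricts vessels and makes the body keep sodium. Renin, made by juxtaglomerular cells at the renal arterioles, cuts angiotensinogen from the liver to angiotensin I, and angiotensin-converting enzyme (Ace), best known from the lung endothelium, turns that into angiotensin II. The peptidases Enpep and Mme trim the peptides further, and the hormone acts on the receptors encoded by Agtr1a and Agtr1b in rodents and by Agtr2, while Mas1 encodes the receptor for angiotensin-(1-7). C57BL/6 mice carry Ren1 as their renin gene.

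Total RNA came from C57BL/6J males of 10 weeks (10W, young) or 90 weeks (90W, old), with 3 mice in each of the 8 groups, and no genetic change or treatment is named for any group. Every sample, carrying the dye Cy3, was read on 1 array, so that the number of arrays limits the precision. A level is the log2 of the background-subtracted processed signal minus the 75th percentile of its array, so that 0 marks that percentile. It can be compared between arrays for 1 probe but not between probes of different genes. The 6 arrays of a tissue, young and old, lay on 1 slide that held no other tissue, so tissue and slide cannot be told apart. The labels do not say whether a mouse gave more than 1 tissue, and the old livers are numbered 1, 2 and 4.

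The labelled tissues carried their defining markers: on every array, all 7 hepatocyte markers were well above background in the liver, all 6 alveolar and airway markers in the lung, all 8 proximal tubule markers in the kidney and all 6 adipocyte markers in WAT. A pair of arrays stood apart. Old lung 1 held hepatocyte RNA, with Alb at a log2 level of 6.68 and a summed level of the 7 hepatocyte markers of 213.9 times the 75th percentile, against 0.460 to 8.51 on the other lungs. Young WAT 1 held transcripts of epididymis and testis, with Lcn5 at 8.76, Crisp1 at 7.58 and Prm2 at 5.68, and a summed level of those 7 markers of 934.5 against 0.336 to 6.80 on the other WAT arrays. Results that rest on either array are given with and without it.

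The gene starts of Ren1, Ace and Mas1 are shown because these genes passed as lower (adjusted p under 0.05) in the old kidney under each scaling of the arrays. That of Agt, the substrate of renin, is shown for comparison. Each sequence is 300 bases from RefSeq on GRCm38.p6, 250 before and 50 after the start, written along the gene's strand, and RefSeq promoters were at hand for 8 of the 9 genes. Capitals mark any of 4 motifs searched on both strands: the TATA box TATAAA, the GC box GGGCGG, the CCAAT box CCAAT and the cAMP response element TGACGTCA. Of all 32851 promoters of this length, 13.6% hold TATAAA, 35.7% GGGCGG, 37.4% CCAAT and 1.79% TGACGTCA.
Ren1, chr1:133350424-133350723, plus strand: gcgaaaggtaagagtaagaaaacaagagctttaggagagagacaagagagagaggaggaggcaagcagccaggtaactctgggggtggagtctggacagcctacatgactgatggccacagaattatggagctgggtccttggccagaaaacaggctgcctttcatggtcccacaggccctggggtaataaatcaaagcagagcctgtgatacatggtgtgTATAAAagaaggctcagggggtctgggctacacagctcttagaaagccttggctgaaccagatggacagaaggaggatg
Ace, chr11:105967698-105967997, plus strand: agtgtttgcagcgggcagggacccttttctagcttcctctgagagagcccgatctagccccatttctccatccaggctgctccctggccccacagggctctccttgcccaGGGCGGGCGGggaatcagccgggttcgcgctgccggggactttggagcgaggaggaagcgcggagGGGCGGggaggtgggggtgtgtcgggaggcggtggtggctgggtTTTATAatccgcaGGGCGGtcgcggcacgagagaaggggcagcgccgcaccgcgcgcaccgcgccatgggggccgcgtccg
Mas1, chr17:12868094-12868393, minus strand: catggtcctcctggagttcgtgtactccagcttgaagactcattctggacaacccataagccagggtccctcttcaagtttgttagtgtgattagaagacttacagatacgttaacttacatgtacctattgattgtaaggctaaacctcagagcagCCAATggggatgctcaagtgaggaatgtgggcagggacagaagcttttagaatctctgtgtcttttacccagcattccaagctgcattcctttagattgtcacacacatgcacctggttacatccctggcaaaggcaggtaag
Agt, chr8:124569657-124569956, minus strand: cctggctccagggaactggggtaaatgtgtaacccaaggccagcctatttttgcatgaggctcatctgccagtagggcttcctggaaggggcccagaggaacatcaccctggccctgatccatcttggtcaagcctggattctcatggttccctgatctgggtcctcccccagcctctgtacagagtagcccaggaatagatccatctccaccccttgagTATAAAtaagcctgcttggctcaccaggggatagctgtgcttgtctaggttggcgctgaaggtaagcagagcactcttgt
Ren1 and Agt each carry TATAAA on their own strand, at -29 to -24 and at -30 to -25 from the start. In Ace the same letters lie on the opposite strand at -31 to -26, between 4 copies of the GC box, of which a pair overlaps. Mas1 holds a CCAAT at -93 to -89 and none of the other 3 motifs, and none of these 4 promoters holds the cAMP response element. These are matches of letters and not measured binding. For Ace, RefSeq also gives a start further downstream, and the array probe carries the accession of the transcript NM_009598.

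**Figure D1:**
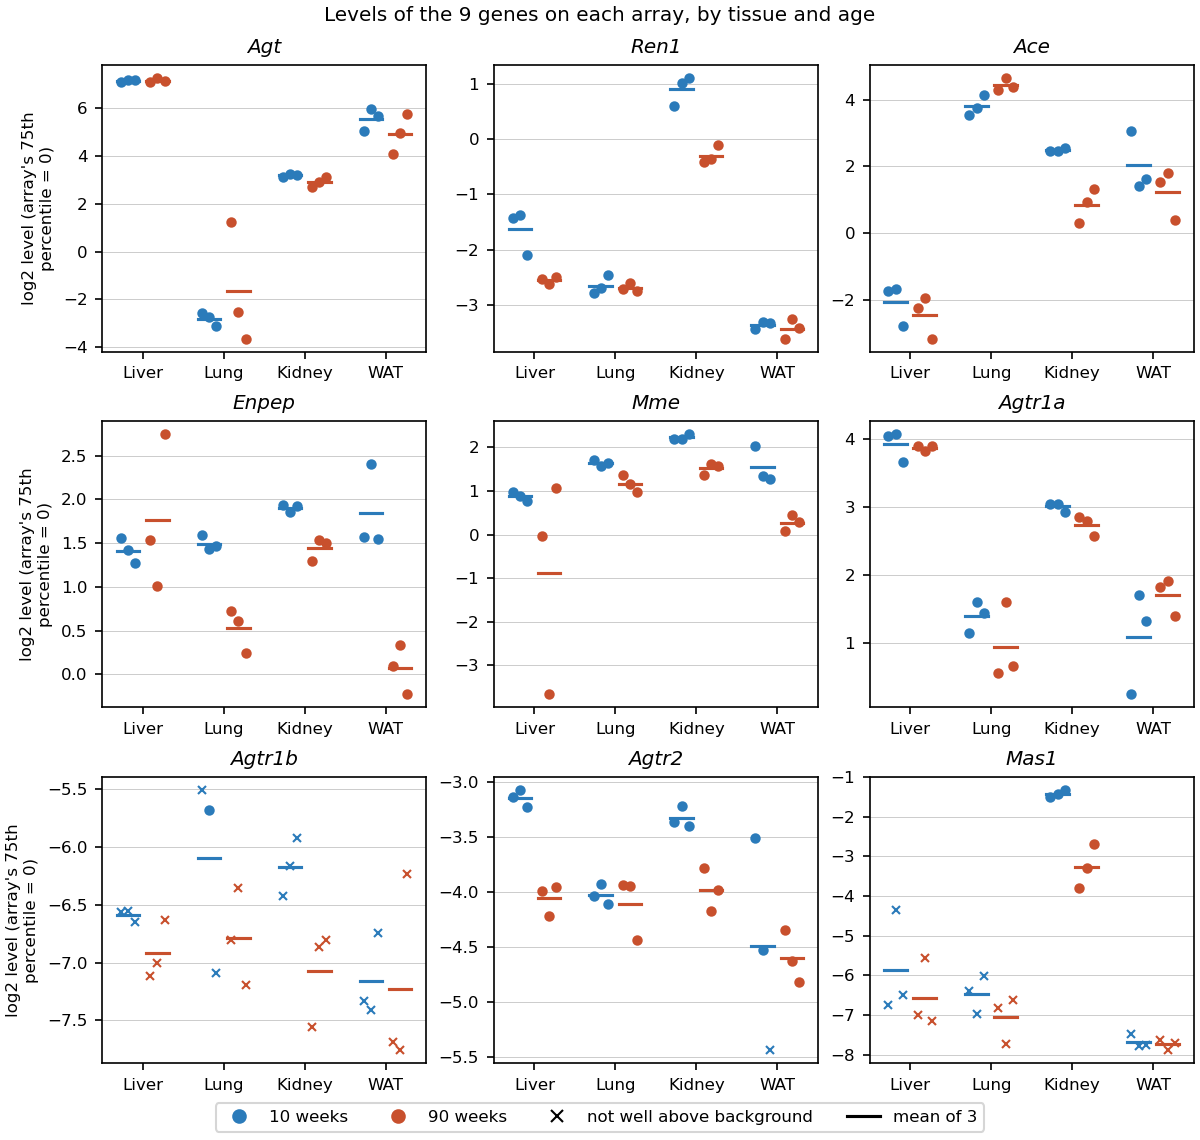
Log2 level of each of the 9 genes on all 24 arrays (array's 75th percentile at 0; each panel has its own axis), by tissue, with 10W in blue and 90W in red. Bars are means of 3 mice and crosses are arrays where the probe was not well above background, as for Mas1 outside the kidney and for Agtr1b on 23 of 24 arrays.

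Agt, the substrate of renin, was highest in the liver at both ages. In the young mice it stood at 7.07, 7.16 and 7.18 in the liver, at 5.02, 5.97 and 5.65 in WAT, at 3.10, 3.24 and 3.20 in the kidney and at -2.59, -2.75 and -3.13 in the lung. No young array of a tissue reached into the range of the next. WAT exceeded the kidney by 2.37 on the log2 scale (SE 0.75, limma over all 24 arrays, adjusted p = 0.011) and the kidney exceeded the lung by 6.00, which is 64.1-fold (adjusted p = 1.2e-06). The step from liver to WAT, 1.59 (SE 0.75), did not pass at 10 weeks (adjusted p = 0.066) and did at 90 weeks, at 2.21 (adjusted p = 0.017). Without old lung 1 the spread of this fit is smaller and the step at 10 weeks passes too (adjusted p = 0.00039). Over 16 alternative analyses of this fit, the step at 10 weeks ranged from 0.65 to 1.79 and passed in 5. That at 90 weeks passed in 14. Unscaled, the young liver signals of Agt (34844 to 44069) lay within those of young WAT (24689 to 51478). Within the liver Agt was at 7.07, 7.24 and 7.11 in the old mice, which overlaps the young, and the change was 0.00 with an SE of 0.15.

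In the old lungs Agt was at 1.24, -2.51 and -3.64. The high value is that of old lung 1, the array with hepatocyte markers, and the part of those markers in it was not tested. With all 6 arrays the change was 1.19 (SE 1.21, adjusted p = 0.56), and without that array -0.25 (adjusted p = 0.70). The old kidneys gave 2.69, 2.89 and 3.12 for Agt, which overlaps the young values, and the fall of 0.28 on the log2 scale did not pass (adjusted p = 0.095). In WAT the old values of 4.09, 4.95 and 5.73 overlapped those of the young.

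Ren1 was highest in the kidney, followed by liver, lung and WAT. At 10 weeks the kidney exceeded the liver by 2.53 on the log2 scale (SE 0.17, adjusted p = 4.6e-10), the liver exceeded the lung by 1.02 (adjusted p = 3.2e-05) and the lung exceeded WAT by 0.71 (adjusted p = 0.0020). At 90 weeks the liver and the lung no longer differed beyond their spread (0.14, SE 0.17, adjusted p = 0.49), while the other steps passed. The order of liver and lung is turned at both ages when the arrays are scaled to their spike-in controls. Ren1 outside the kidney was dim: its processed signal was between 55.2 and 119 in the liver, against 629 to 1176 in the kidney.

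Ace was highest in the lung, at 3.55, 3.76 and 4.15 in young and 4.30, 4.64 and 4.38 in old mice, and lowest in the liver, where no array exceeded -1.66. In the young mice the lung exceeded the kidney by 1.33 (SE 0.44, adjusted p = 0.013), and WAT exceeded the liver by 4.08 (adjusted p = 1.7e-07). Kidney and WAT did not differ beyond their spread at either age (adjusted p = 0.39 and 0.52). Young WAT 1, with its epididymis and testis transcripts, had the highest Ace of the 6 WAT arrays, 3.07 against 1.41 and 1.61 on the other young arrays. Without it the kidney lay 0.98 above WAT at 10 weeks (adjusted p = 0.054).

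Of the receptors, Agtr1a was highest in the liver, 0.91 above the kidney at 10 weeks (SE 0.29, adjusted p = 0.013). The kidney exceeded the lung by 1.61 (adjusted p = 0.00011). Over 16 alternative analyses of this fit, Agtr1a for liver minus kidney ranged from 0.49 to 1.01 at 10 weeks and passed in 13. At 90 weeks it ranged from 0.43 to 1.19 and passed in 15. Unscaled young signals overlapped, at 3637 to 5157 in the liver and 3499 to 5129 in the kidney. Lung and WAT did not differ beyond their spread in the young mice (0.31, adjusted p = 0.39), and this sign turns without young WAT 1. At 90 weeks WAT was 0.77 above the lung (adjusted p = 0.036), a difference that did not pass without old lung 1 (0.58, adjusted p = 0.15). Mas1 was well above background in the kidney alone, on all 6 arrays, and on none of the arrays of liver, lung and WAT. The young kidney exceeded the liver at least 8.56-fold, WAT at least 18.6-fold and the lung at least 21.4-fold (adjusted p at most 5.0e-07), where each bound sets the kidney mean against, on each array of the other tissue, the dimmest probe that still counted as well above background or the signal of Mas1 itself, whichever was higher. At 90 weeks these bounds were 3.27, 5.22 and 4.59.

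Agtr2 was dim everywhere, with log2 levels between -5.44 and -3.07, and 4 of its 6 tissue pairs passed at 10 weeks and none at 90 weeks. Without young WAT 1, lung and WAT differed by 0.96 at 10 weeks (adjusted p = 0.0013) and by 0.49 at 90 weeks (adjusted p = 0.040). Without old lung 1, the kidney no longer passed against the lung at 10 weeks (0.70, adjusted p = 0.055). Agtr1b was well above background on 1 of 24 arrays, a young lung, by the probe used here. Its other probe was well above background on 3 young lungs and 1 old lung and nowhere else. Agtr1b was tested in no tissue because the probe used here was well above background on too few arrays. The other probe was so on enough lung arrays, with a change of -0.89 there, but was not the probe used.

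On this scale the peptidases differed less between tissues. Enpep is the aminopeptidase that removes the first residue of angiotensin II, and Mme (neprilysin) cuts angiotensin I to angiotensin-(1-7). For both genes, none of the 6 tissue pairs passed at 10 weeks. Over 16 alternative analyses of the fit of all arrays, young Enpep for liver minus lung ranged from -1.48 to 0.21 and passed in 1. Its unscaled signals were 696 to 820 in the young liver and 2377 to 2539 in the young lung. The old mice differed in 4 pairs for Enpep, with the liver 1.24 above the lung (adjusted p = 0.0018), the liver 1.69 and the kidney 1.38 above WAT (adjusted p = 0.00013 and 0.0014) and the kidney 0.92 above the lung (adjusted p = 0.018). Old liver 4 was the highest. With the mean of the other old livers, the liver lay 0.74 above the lung and 1.20 above WAT, with no test. Unscaled Enpep signals overlapped between the old liver (682 to 2924) and the old lung (857 to 1428). Old Enpep for lung minus kidney ranged from -1.10 to -0.44 over those 16 alternatives and passed in 14. For Mme the old liver lay 2.40 below the kidney (adjusted p = 0.0066) and 2.05 below the lung (adjusted p = 0.015), with the old livers spread over -0.03, -3.67 and 1.07, and without the lowest array the liver minus kidney and liver minus lung differences were -0.998 and -0.648, with no test. Over all members, 28 of 45 tissue pairs passed at 10 weeks (62.2%) and 31 of 45 at 90 weeks (68.9%). Among all genes tested the share that passed at 10 weeks was 74.7% for liver against lung, 56.7% for liver against kidney, 68.9% for liver against WAT, 64.3% for lung against kidney, 55.3% for lung against WAT and 57% for kidney against WAT. At 90 weeks the shares were 64.3%, 55.4%, 57.3%, 53%, 51.6% and 44.3% in the same order, so the members were near the whole array at 10 weeks and slightly above it at 90 weeks.

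With age, every member that passed the test was lower, and none was higher, in any tissue. In the kidney 6 of the 8 members tested fell: Mas1, Ace, Ren1, Mme, Agtr2 and Enpep. The kidney also changed most widely: 63.2% of its 31485 tested genes were called, 42.5% as lower and 20.7% as higher. The median change of the 8 members was -0.68 on the log2 scale, beside -0.23 for all genes. In 7 of the 8 the young and old groups did not overlap, as in 70.7% of all genes.

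**Figure D2:**
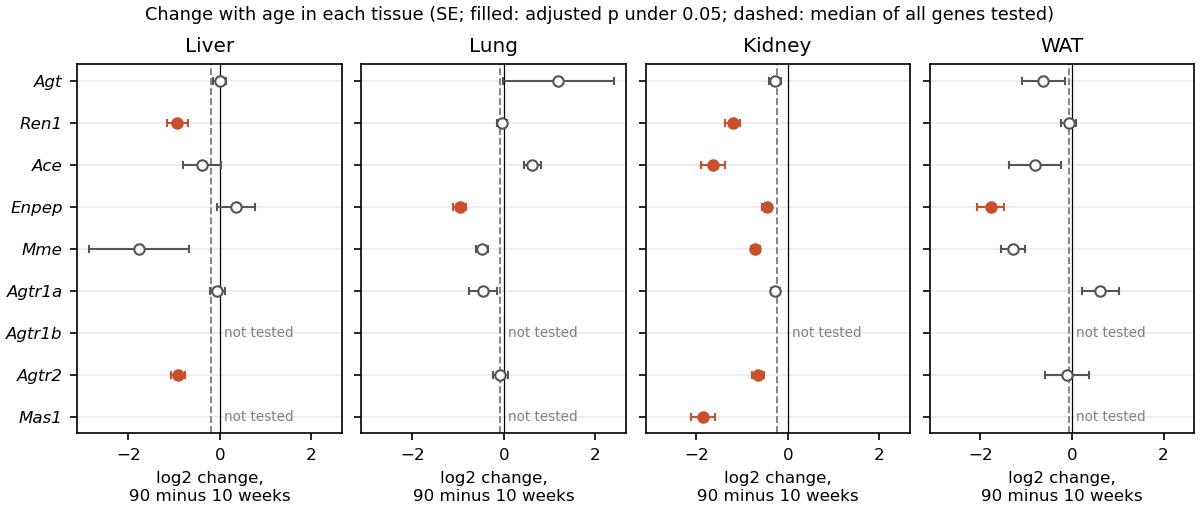
Change in log2 level from 10 to 90 weeks for each gene in each tissue, with its SE (limma, 3 against 3 mice). Filled points have an adjusted p under 0.05, all of them below 0, and the dashed line is the median of all genes tested, from -0.23 in the kidney to -0.05 in WAT.

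Ren1 in the young kidneys was at 0.59, 1.01 and 1.098, and in the old at -0.42, -0.37 and -0.11. Every old kidney lay below every young kidney. The fall was 1.20 on the log2 scale, 2.30-fold (SE 0.16, adjusted p = 0.0013). Before any scaling the processed signal was 932 to 1176 in the young and 629 to 730 in the old kidneys, although the 75th percentile of the arrays was higher in the old (788 to 862 against 460 to 618).

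Ace in the young kidneys was at 2.45, 2.46 and 2.55, and in the old at 0.30, 0.95 and 1.33. The young kidneys lay close together and the old were spread out below them. The fall was 1.63 on the log2 scale, 3.10-fold (SE 0.25, adjusted p = 0.0021).

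Mas1 had the steepest fall of the members in the kidney, from -1.50, -1.41 and -1.32 to -3.78, -3.29 and -2.69. This is 1.85 on the log2 scale, 3.59-fold (SE 0.27, adjusted p = 0.0016). Its other probe, dimmer and well above background on all 3 young but 1 old kidney, differed by -2.19. Ren1, Ace and Mas1 each passed in all 18 alternative analyses of the kidney.

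Mme fell in the kidney from 2.18, 2.20 and 2.30 to 1.37, 1.61 and 1.58, by 0.71 on the log2 scale (SE 0.10, adjusted p = 0.0013), and its other probe gave -0.74. Enpep fell from 1.94, 1.86 and 1.92 to 1.29, 1.54 and 1.51, by 0.46 (SE 0.09, adjusted p = 0.0064), and its other probe gave -0.31. The scaled levels of the ages did not overlap for either peptidase. Unscaled signals did, at 2275 to 2808 in the young and 2180 to 2640 in the old for Mme. For Enpep they were 1741 to 2369 and 2065 to 2509, with a higher mean in the old (2271 against 2074). Agtr2 went from -3.36, -3.21 and -3.40 to -3.78, -4.17 and -3.98 (-0.65, SE 0.12, adjusted p = 0.0046), but its unscaled signal overlapped between the ages, with 43.7 to 62.9 in the young and 47.8 to 61.6 in the old. Agtr1a was at 3.05, 3.05 and 2.93 in the young and 2.85, 2.80 and 2.58 in the old kidneys, a difference of -0.27 that did not pass (adjusted p = 0.056) though the groups did not overlap.

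The scaling of the arrays separates these genes. Scaled to the 230 spike-in control spots of each array, the median of all kidney genes moved from -0.23 to 0.16, and the share of calls that were higher moved from 32.7% to 68.0%. Ren1 (-0.81), Ace (-1.24) and Mas1 (-1.46) still fell under that scaling (adjusted p = 0.0019, 0.0022 and 0.00093). Mme (-0.32), Agtr2 (-0.26) and Enpep (-0.07) did not pass (adjusted p = 0.10, 0.26 and 0.74), and Agt and Agtr1a were above 0. The same 3 genes were the ones called when all 24 arrays shared 1 estimate of the spread.

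**Figure D3:**
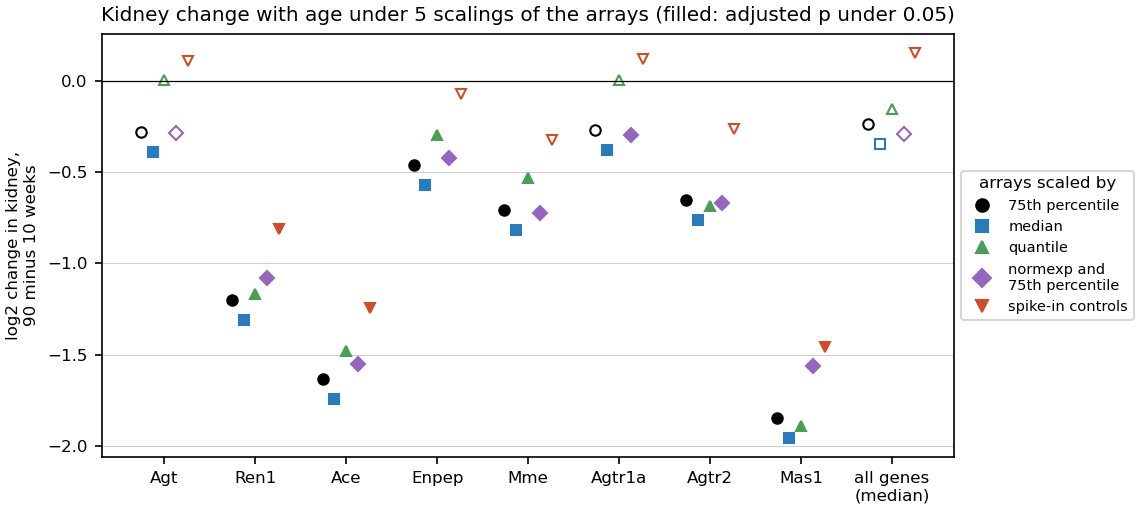
Log2 change in the kidney from 10 to 90 weeks under 5 ways of scaling the arrays, for the 8 members tested and for the median of all genes. Filled symbols have an adjusted p under 0.05. Ren1, Ace and Mas1 lie below -0.8 and are filled throughout, while Enpep comes to -0.07 with the spike-in controls.

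Markers of cell types moved in the same kidneys. The 8 proximal tubule markers, of the segment whose brush border carries Mme, Enpep and Ace, all fell, and their summed level went from between 805 and 852 to between 274 and 419 times the 75th percentile. The markers of vascular smooth muscle and pericytes, among which the juxtaglomerular cells lie, went from between 27.2 and 30.4 to between 54.2 and 77.7, with 7 of 8 higher and none lower. Fibroblast markers (10.2 to 11.8, then 44.1 to 59.7; 5 of 5 higher) and leukocyte markers (17.7 to 26.1, then 37.1 to 53.3; 6 of 7 higher) also rose, and podocyte markers did so in 3 of 5. Their part in the members' changes was not tested, and in whole tissue fewer cells of a type and less RNA per cell cannot be told apart.

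**Figure D4:**
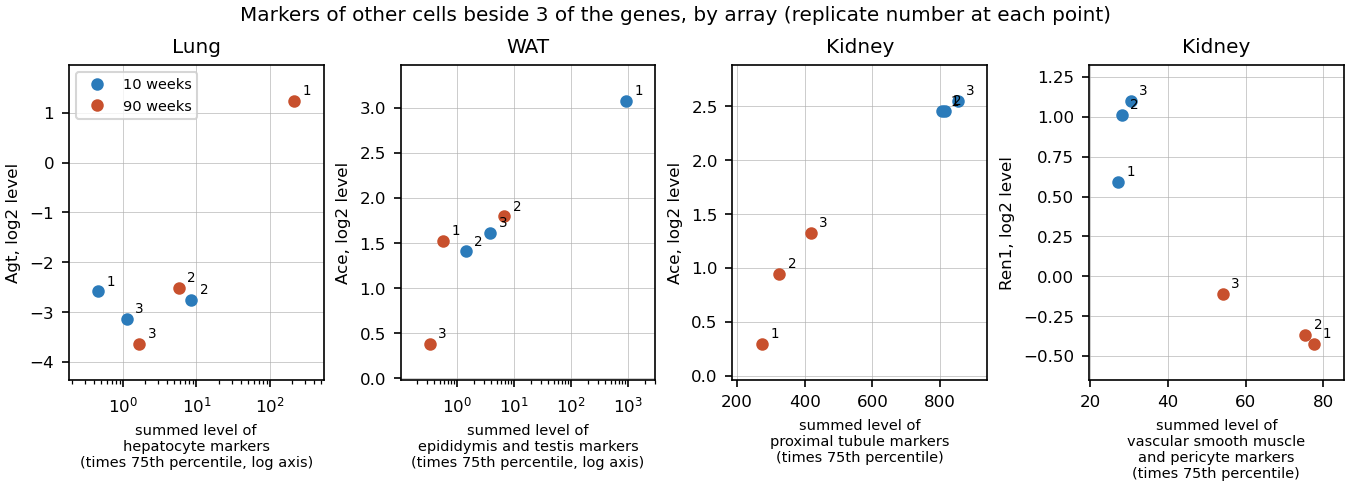
Log2 level of Agt in the lung, Ace in WAT, and Ace and Ren1 in the kidney against the summed level of a marker list on the same array, with 10W in blue, 90W in red and the replicate number at each point. Old lung 1 and young WAT 1 lie far to the right with the highest Agt and Ace, and in the kidney the ages are separate on both axes.

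In the liver 2 of 7 members tested fell, Ren1 and Agtr2, where 27.4% of 27869 genes were called, 16.8% as lower and 10.6% as higher. Ren1 was at -1.42, -1.37 and -2.09 in the young and at -2.54, -2.62 and -2.50 in the old livers. Those 2 genes had no overlap between the ages, as had 49.8% of all liver genes, and Ren1 fell by 0.92 on the log2 scale (SE 0.22, adjusted p = 0.027). Unscaled, the signals overlapped (67.7 to 119 in the young, 55.2 to 77.2 in the old), and the call was kept in 11 of 18 alternatives, not without young liver 1 or 2 or old liver 1 or 2 (adjusted p between 0.060 and 0.096). Without one of those arrays, between 8.92% and 18.2% of all liver genes were called. Agtr2 went from -3.13, -3.07 and -3.22 to -3.99, -4.22 and -3.95, by -0.91 (SE 0.16, adjusted p = 0.0099), with unscaled signals of 29.6 to 36.6 and 18.2 to 28.3, and passed in 16 of 18. With the spike-in controls neither passed, at -0.81 and -0.80 (adjusted p = 0.16 and 0.15). Over the same arrays the summed leukocyte markers were at 20.02 to 21.8 in the young and 58.7 to 328 in the old livers, those of fibroblasts at 53.0 to 68.6 and 131 to 152, of endothelium at 27.2 to 33.1 and 39.1 to 42.4, and of adipocytes at 7.47 to 12.7 and 18.8 to 29.8. The hepatocyte markers were at 3122 to 3579 in the young and 2060 to 2643 in the old. Their part was not tested.

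Enpep and Mme were uneven in the old livers. Enpep was at 1.55, 1.42 and 1.27 in the young and at 1.54, 1.01 and 2.75 in the old, with the highest value in old liver 4. Mme was at 0.98, 0.88 and 0.78 in the young and at -0.03, -3.67 and 1.07 in the old, and the lowest value belongs to old liver 2, the array with the highest leukocyte markers. The other probe of Mme gave nearly the same change in the liver, -1.73 beside -1.75. Neither gene passed (adjusted p = 0.55 and 0.25), and Mme lay 0.35 lower without old liver 2 (adjusted p = 0.46).

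In the lung 1 of 7 members passed, Enpep, where 5.57% of 30312 genes were called, 2.86% as lower and 2.7% as higher. Enpep was at 1.59, 1.43 and 1.46 in the young and at 0.73, 0.61 and 0.24 in the old lungs, which do not overlap. It fell by 0.97 on the log2 scale (SE 0.15, adjusted p = 0.026), and the call was kept in 10 of 18 alternatives, not when any 1 young lung was left out (adjusted p between 0.090 and 0.12). Without young lung 1, 2 or 3, the share of all lung genes called was 0.0066%, 0.079% and 0.68%. The other probe of Enpep gave 0.04 in the lung, so the probes disagree there. Ace was above the young lungs in all 3 old lungs, by 0.62 (SE 0.18), and did not pass (adjusted p = 0.10). Mme was below them in all 3, by -0.48 (adjusted p = 0.081). Groups that do not overlap are found for 35.8% of lung genes. Over the same arrays the summed endothelial markers were at 258 to 288 in the young and 325 to 497 in the old, and the leukocyte markers at 49.7 to 76.5 and 113 to 400. Those of fibroblasts (71.6 to 95.3, then 33.7 to 48.2), of vascular smooth muscle and pericytes (119 to 145, then 71.0 to 88.9) and of adipocytes (38.3 to 65.7, then 7.97 to 25.7) were lower in every old lung. Their part was not tested.

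In WAT 1 of 7 members passed, again Enpep, where 2.56% of 30042 genes were called, 0.566% as lower and 1.99% as higher. Enpep fell from 1.57, 2.41 and 1.54 to 0.10, 0.34 and -0.23, by 1.77 on the log2 scale, 3.42-fold (SE 0.30, adjusted p = 0.044). The groups lay over a log2 unit apart, and the other probe gave -1.99. The call was nonetheless lost when any 1 of the 6 arrays was left out, with changes between -1.92 and -1.49 (adjusted p between 0.066 and 0.15). Those fits called between 0.80% and 1.97% of all WAT genes. Mme went from 2.03, 1.34 and 1.28 to 0.08, 0.44 and 0.29, also without overlap (28.7% of all WAT genes had none), by -1.28 (SE 0.26), and did not pass (adjusted p = 0.065). The summed leukocyte markers were at 22.3 to 52.4 in the young and 132 to 374 in the old WAT, and their part was not tested.

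Ace in WAT was at 3.07, 1.41 and 1.61 in the young and at 1.52, 1.79 and 0.38 in the old, which overlap. The difference was -0.80 (SE 0.57, adjusted p = 0.48) and -0.28 without young WAT 1. That array also had the highest Agtr2 of the WAT arrays, -3.50, and the lowest Agtr1a, 0.25 against 1.70 and 1.33. Without it Agtr2 turned from -0.11 to 0.39 (adjusted p = 0.56), and Agtr1a moved from 0.62 to 0.20.

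Whether the changes differ between tissues was tested in the fit of all arrays, where 7 of 45 comparisons of members passed (15.6%), beside 13.6% of all genes for liver against lung, 9.15% for liver against kidney, 16.6% for liver against WAT, 19.7% for lung against kidney, 3.18% for lung against WAT and 21.6% for kidney against WAT. The fall of Ren1 in the kidney was larger than its change in the lung, by 1.16 (SE 0.24, adjusted p = 0.0031), and in WAT, by -1.13 (adjusted p = 0.0037), and its fall in the liver was larger than in the lung (-0.88, adjusted p = 0.022) and WAT (-0.85, adjusted p = 0.023). Ace differed between lung and kidney, where it lay 0.62 higher and 1.63 lower with age, a difference of 2.25 (SE 0.62, adjusted p = 0.017). For Enpep the change in WAT lay below that in the kidney (1.31, adjusted p = 0.039) and the liver (2.12, adjusted p = 0.0036). For Agt, Agtr1a, Agtr2, Mas1 and Mme no such difference passed. With spike-in scaling the Ren1 differences were 0.67, -0.75, -0.67 and -0.75 in the order given and that of Ace was 1.76, and none of them passed (adjusted p between 0.057 and 0.22), while both of Enpep did. Over 10 fits with arrays left out, the Ren1 differences passed in 10, 10, 6 and 6, in the same order, and that of Ace in 7. For Enpep, WAT against the kidney passed in 5 of those fits and WAT against the liver in 10. Without young WAT 1 the count of comparisons that passed was 11, and it was 3 without the young arrays numbered 2 or the old arrays numbered 1.

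The genes whose levels followed each member most closely over the 24 arrays are given as a description, since the arrays share 4 tissues and 2 ages and much of any correlation is the difference between tissues. Among 19046 genes, Ren1 was nearest to Hoxa9 (r = 0.98), Slc5a10 and St8sia1. Mas1 was nearest to Ren1 (r = 0.96), Slc5a10 and 5830418P13Rik. For Agt they were 3300002I08Rik (r = 0.96), Zfp658 and 2010003K11Rik, for Ace Arl2bp (r = 0.97), 1700029J07Rik and Dnaaf4, and for Agtr1a Ppara (r = 0.95), Zdhhc9 and Cyp2d12. Agtr2 (Guk1, r = 0.90, Gm10706 and 2410004P03Rik), Mme (Tsen15, r = 0.85, Zscan22 and BC037704) and Enpep (Elmo3, r = 0.78, Slc35a1 and Cttn) had looser neighbours.

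Other genes around the system were read from 4 lists. Of 17 other angiotensin-processing enzymes and receptor partners, 15 were tested in the kidney, 10 fell and 1 rose, with a median of -0.28 beside -0.23 for all kidney genes, of which 42.5% fell and 20.7% rose. Anpep, an aminopeptidase of the brush border, fell from 5.23, 5.23 and 5.30 to 4.29, 4.41 and 4.60, by 0.82 on the log2 scale (SE 0.10, adjusted p = 0.00086), and Ctsg, a protease of granulocytes, by 1.25, while Mcpt4, a mast cell chymase, rose by 0.86. The kidney calls of Ctsg and Mcpt4 were kept in 17 and 15 of 18 alternatives, and that of Anpep in all 18. Smaller falls of Ctsa (-0.54) and Prcp (-0.24) turned to 0.05 and 0.11 with quantile normalization. Both rose in the liver, Ctsa by 0.69 and Prcp by 1.09 (kept in 11 and 17 of 18 alternatives), as did Ctsa in the lung by 0.76 (7 of 18).

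In WAT 3 of 16 genes of that list rose, beside 1.99% of all genes: Cma1 (3.42) and Mcpt4 (2.96), both mast cell chymases, and Anpep (3.08). These calls were kept in 10, 8 and 11 of 18 alternatives, and each in 1 of the 6 that leave out an array. The mast cell markers, a list that holds Cma1 and Mcpt4 too, had a summed level of 3.49 to 10.5 in the young and 41.6 to 63.7 in the old WAT, and their part was not tested. Dpp3, which degrades angiotensins, fell in the liver by 0.83, a call kept in 14 of 18 alternatives and in 4 of the 6 that leave out an array. Cma1 was called lower there too, with 1 old array well above background and the call kept in 7 of 18 alternatives. In all, 2 of 14 genes rose and 2 fell in the liver and 1 of 16 rose in the lung. Of all liver genes 10.6% rose and 16.8% fell, and of all lung genes 2.7% rose.

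Of 17 aldosterone and sodium-handling genes, 16 had a probe and were tested in the kidney, 12 fell and 1 rose, with a median of -0.77 (all kidney genes: 42.5% fell, 20.7% rose, median -0.23). The largest falls were those of the thiazide-sensitive cotransporter Slc12a3 (-1.63, adjusted p = 0.0010) and the potassium channel Kcnj1 (-1.25). The loop cotransporter Slc12a1 (-1.21) and Scnn1a, a subunit of the epithelial sodium channel (-1.05), came next. Slc12a3 and Kcnj1 kept the call in all 18 alternatives, Scnn1a in 17 and Slc12a1 in 16. Wnk1, a kinase that acts on these cotransporters, fell in the kidney by 0.93 and rose in the liver by 0.51, a call kept in 8 of 18 alternatives and in 0 of the 6 that leave out an array. In the liver 3 of 11 rose, beside 10.6% of all genes, with Stk39 by 1.45 and Sgk1, which aldosterone induces, by 1.11 (kept in 17 and 10 of 18). The lung had 1 fall among 12, that of Scnn1b by 0.51 (kept in 8 of 18), and WAT had no call among 11. Of all genes, 2.86% fell in the lung and 2.56% were called in WAT.

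Kinin and natriuretic peptide genes went both ways in the kidney, with 4 of 14 higher and 5 lower, where 63.2% of all kidney genes were called. The tissue kallikrein Klk1 fell by 1.86 (adjusted p = 0.000545) and the kininogen Kng2 by 1.33 (kept in 18 and 17 of 18 alternatives). Edn1, encoding the vessel-constricting endothelin, rose from -2.84, -2.76 and -2.52 to 0.84, 0.79 and 0.95, by 3.56 (SE 0.11, adjusted p = 1.77e-05), and its receptor Ednra by 2.40. Edn1 also rose in the liver by 2.24 and in the lung by 1.27, calls kept in 17 and 12 of 18 alternatives. In the lung the call was kept in 3 of the 6 that leave out an array. Npr1, a natriuretic peptide receptor, rose in the kidney by 0.57 (kept in 17 of 18). Its fall in the liver, 0.74 on the log2 scale, and that of Nppa, 0.66, were each kept in 8 of 18 alternatives, while Ednra rose there by 1.38 (17 of 18). In the lung Ednrb fell by 0.91 and Bdkrb1 by 0.49, calls kept in 8 and 5 of 18, and with an array left out in 1 and 0 of 6. WAT had no call among 14 genes, where 2.56% of all genes were called.

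Of the juxtaglomerular cell genes and regulators of renin release, 10 of 11 were tested in the kidney, 5 rose and 4 fell, where 63.2% of all genes were called. Ptgs2, the cyclooxygenase that drives prostaglandin signals to renin cells, was well above background on 0 young kidneys and all 3 old, and was at least 1.92-fold higher in the old (adjusted p = 0.0067), and the prostaglandin receptor Ptger4 rose by 2.39 (adjusted p = 7.69e-05). Vdr and Casr, receptors for vitamin D and for calcium, fell by 1.43 and 1.31, and Akr1b7, a marker of renin cells, by 0.84. The kidney call of Akr1b7 was kept in 16 of 18 alternatives. In the liver 4 of 7 rose, beside 10.6% of all genes: Ptger4 (3.21), Adrb1 (2.30), Akr1b7 (2.12) and Vdr (at least 1.96-fold). The liver call of Akr1b7 was kept in 9 of 18 alternatives, and with an array left out in 1 of 6. None of the 8 tested in the lung and 7 in WAT passed, where 5.57% and 2.56% of all genes were called.

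**Figure D5:**
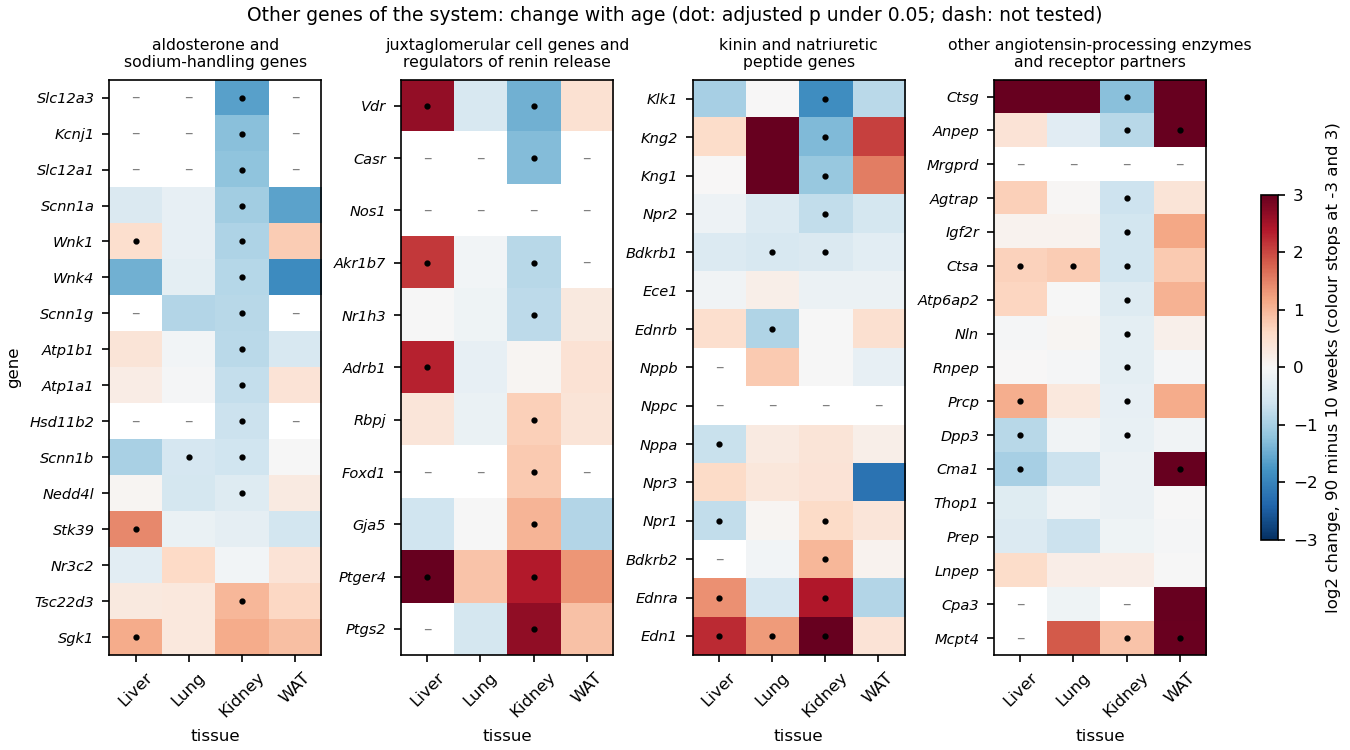
Log2 change from 10 to 90 weeks of the genes with a probe in 4 lists around the system, by tissue, ordered within each list by the change in the kidney. Dots mark an adjusted p under 0.05 and dashes genes not tested, and the kidney holds 42 of the 65 dots.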

How the data were processed

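Total RNA of 24 samples was labelled with Cy3 and hybridized to Agilent mouse arrays designed on mm9 (the methods name a human kit). Per the file headers, the authors extracted spot intensity with Feature Extraction 11.0.1.1, and the deposited processed signal is an intensity already background-subtracted. From 62976 spots an array, control spots and flagged outliers were left out and spots of a probe averaged, giving 56605 probes, of which 32989 were matched by accession to 1 RefSeq symbol. The 75th percentile was subtracted on the log2 scale. In each tissue, genes were tested when 3 or more of its 6 arrays put them well above background, with limma 3.58.1 in R 4.3.3, within each tissue for age and over all 24 arrays for tissue differences, with Benjamini-Hochberg adjustment at 0.05. Where a group was below background, folds are lower bounds. Between 58.6% and 71.1% of probes an array were well above background. The members and lists were chosen with earlier results of these data known. Members, called pairs, neighbours (the 3 highest Pearson correlations) and list genes that passed were eligible to be named. Alternatives were other background corrections, scalings, filters, probe rules and tests, and each array left out. The arrays are separate samples by their labels, and p-values measure the spread between them. With 3 against 3 arrays an exact permutation test cannot go below 0.1, so limma was used. Scripts were tested on simulated data. A gene of the lists is not reported here.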

Additional observations from a re-analysis of the deposited data

Results flagged for a closer look

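The age changes of 3 genes differed between tissues in the limma fit of all 24 arrays. For Ren1 the differences were -1.13 for kidney minus WAT (SE 0.24, adjusted p = 0.0037), 1.16 for lung minus kidney (SE 0.24, adjusted p = 0.0031), -0.88 for liver minus lung (SE 0.24, adjusted p = 0.022) and -0.85 for liver minus WAT (SE 0.24, adjusted p = 0.023). For Ace lung minus kidney gave 2.25 (SE 0.62, adjusted p = 0.017). For Enpep kidney minus WAT gave 1.31 (SE 0.44, adjusted p = 0.039) and liver minus WAT 2.12 (SE 0.44, adjusted p = 0.0036). Groups of 3 arrays are too small for a test of single outlying arrays. With spike-in scaling the differences of Ren1 and Ace did not pass (adjusted p between 0.057 and 0.22), and those of Enpep did. With arrays left out, Ren1 passed in 10 of 10 fits for kidney minus WAT and lung minus kidney, and in 6 for each liver difference. Ace passed in 7 of those fits, and Enpep in 5 for kidney minus WAT and in 10 for liver minus WAT.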

How the results depend on the processing

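The scaling set how many members were called. With spike-in scaling the calls were 0 in the liver, 3 in the kidney and 0 in WAT, and 2 differences of age changes, while the higher share of all calls moved from 38.6% to 72.4% in the liver and from 32.7% to 68.0% in the kidney. Of all genes in those tissues, 12.6%, 43.4% and 2.38% were called. Normexp gave 2 calls in WAT and 11 differences of age changes, array weights gave 2 in WAT, and median centring gave 0 in WAT. These called 2.95%, 6.28% and 2.53% of all WAT genes. Without the filter on dim probes the lung and WAT had 0 each (all genes: 0.95% and 1.06%), and the mean of a gene's probes left 0 in the lung (5.16%). With all 24 arrays in 1 fit the lung had 0 and the kidney 3 (all genes: 3.20% and 42.8%). The methods' t-test, Benjamini-Hochberg adjusted, gave 1 in the liver and 0 each in lung and WAT. It called 11.1%, 0.70% and 0.0033% of all genes there. Leaving out arrays gave 1 to 2 calls in the liver, 0 to 1 in the lung, 6 to 7 in the kidney, 0 to 0 in WAT, 23 to 32 tissue pairs at 10 weeks, 27 to 34 at 90 weeks and 3 to 11 differences of age changes. Leaving out young WAT 1 alone, chosen after seeing the data, gave 11 such differences, and leaving out old lung 1 as well gave 10.

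Same-numbered young and old arrays of a tissue are of different mice. Their deviations correlated with a median r of 0.009, over 0.1 in 2 of 11 pairs. Differently numbered pairs of this kind gave -0.026 and 5 of 25. Between tissues at the same age, same-numbered arrays had a median r of 0.032, over 0.1 in 10 of 33 pairs. Differently numbered arrays there had -0.0099 and 10 of 75. Whether a mouse gave more than 1 tissue was not tested. With the number as a replicate block the calls were 0 in liver, lung and WAT, and Enpep in the liver turned to -0.21. That fit called 6.09%, 0.0033% and 1.22% of all genes in those tissues.

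Of the age changes of single members, 454 of the alternative values kept direction and side of the threshold, 34 lost the call, 9 gained it and 25 changed sign. Quantile normalization turned Agtr1a in the liver (0.15), Agt and Agtr1a in the kidney (0.0090 and 0.0077), Ctsa and Prcp in the kidney (0.047 and 0.11), Ren1 and Agtr2 in WAT (0.040 and 0.020), Agtr2 for liver minus lung at 90 weeks (-0.032) and Enpep for kidney minus WAT at 10 weeks (-0.030). Spike-in scaling turned Agtr1a in liver and kidney (0.059 and 0.12), Agt and Prcp in the kidney (0.11 and 0.15), Ren1 for liver minus lung (-0.38 at 10 and -1.05 at 90 weeks), Agtr2 for liver minus lung at 90 (-1.14), liver minus kidney at 10 (-0.25) and lung minus kidney at 10 weeks (0.27), Enpep for liver minus kidney at 90 (-0.39) and lung minus WAT at 10 weeks (0.61), Mme for lung minus kidney (0.39 at 10 and 0.13 at 90 weeks) and Agtr1a for lung minus WAT at 90 weeks (0.085). Agt in the liver turned with median centring (-0.020) and array weights (-0.035), and Agtr2 in WAT with array weights (0.40) and normexp (0.013). Normexp also turned Ren1 in WAT (0.022) and Agtr2 for liver minus kidney at 90 weeks (0.31), and the mean of probes turned Enpep for liver minus lung at 10 weeks (0.21). Leaving out arrays turned values that ranged from -0.050 to 0.036 for Agt, -0.18 to 0.023 for Agtr1a and -0.14 to 0.73 for Enpep in the liver, from -0.25 to 2.18 for Agt, -0.11 to 0.054 for Ren1 and -0.17 to 0.085 for Agtr2 in the lung, and from -0.15 to 0.020 for Ren1 and -0.58 to 0.39 for Agtr2 in WAT. Among tissue pairs the ranges were -0.12 to 0.21 for Agtr2 (liver minus lung), -0.18 to 0.74 for Enpep (liver minus kidney), -2.12 to 0.34 for Mme (liver minus WAT) and -1.04 to 0.047 for Ace (kidney minus WAT) at 90 weeks, and -0.11 to 0.51 for Agtr1a and -0.033 to 0.34 for Mme (lung minus WAT) and -0.092 to 0.37 for Enpep (kidney minus WAT) at 10 weeks. Without both young WAT 1 and old lung 1, Agtr1a was at -0.11 and Enpep at -0.070. The cause was not tested. Agtr2, Agtr1b and Mas1 outside the kidney were near background, which limits their values.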
